A study of Mus musculus with 10 samples.

Results

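Il10, Maf, Prdm1, Klrg1, Fgl2 and Ebi3 are 6 genes of the effector program of regulatory T cells (Tregs). They were picked by symbol from the 21556 genes of the count table, and all 6 were found once and passed the filter on low counts. The Tregs, identified by a red fluorescent protein, came from tumors and lymph nodes (LN) of mice aged 10 weeks bearing a lymphangiogenic melanoma line. The groups were tumor of MHCIIdeltaProx-1 mice (n = 2), tumor of MHCIIfl/fl mice (n = 3), LN of MHCIIdeltaProx-1 mice (n = 2) and LN of MHCIIfl/fl mice (n = 3). All mice carried the floxed MHC class II allele, and in MHCIIdeltaProx-1 mice a Cre recombinase driven by Prox1, a gene of lymphatic endothelium, removed it, while MHCIIfl/fl mice had no Cre. The Tregs themselves were not the target of the deletion. Which LN was taken, which gene drives the reporter, and whether a library came from 1 mouse or from a pool are not given in the sources used here, so p-values measure only the spread between these libraries.

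Effector Tregs are the activated part of the Treg pool that leaves lymphoid organs and acts in tissues and tumors. They differ from resting Tregs by suppressive mediators and by the transcription factors that control them. Il10 encodes the suppressive cytokine interleukin 10. Maf encodes c-Maf, a basic leucine zipper factor that binds the Il10 locus in T cells, and Prdm1 encodes Blimp-1, a repressor-type zinc finger factor of effector Tregs that is also needed for their Il10 expression. Klrg1 encodes an inhibitory lectin-like receptor of terminally differentiated T cells whose ligands are cadherins. Fgl2 encodes a secreted fibrinogen-like protein that acts on Fc gamma receptors, and Ebi3 encodes the beta chain shared by the cytokines interleukin 27 and interleukin 35.

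The members were proposed with earlier results of these data in view, among them the deletion effect in tumor. Their values in that comparison, and in the tumor minus LN difference built on it, are therefore given as a description with no test. The LN deletion effect and the tissue effects were tested in a fit to all genes, but they are not independent of the choice. The tissue effects share tumor libraries with the deletion effect in tumor, and the LN values may also have been in view when the members were proposed.

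Libraries held 28539329 to 35736175 counts over 12825 to 14703 detected genes. Levels are given as CPM, counts scaled to library size with TMM factors. The lowest count of any member in any library was 93 (Il10). Foxp3, the lineage factor of Tregs, was present in every library. It had 349 and 342 CPM in tumor of MHCIIdeltaProx-1 mice and 646, 817 and 750 CPM in tumor of MHCIIfl/fl mice, and 580 and 654 CPM in LN of MHCIIdeltaProx-1 mice and 669, 747 and 644 CPM in LN of MHCIIfl/fl mice. The tumor libraries also held melanoma transcripts. The sum of 12 melanoma markers was 19145 to 23360 CPM in tumor of MHCIIdeltaProx-1 mice, 4824 to 9409 CPM in tumor of MHCIIfl/fl mice and at most 52.0 CPM in any LN library. The sum of 18 genes shared by all T cells, called pan-T cell genes here (17 of them with counts), was 5411 to 6549 CPM in tumor of MHCIIdeltaProx-1 mice and 12759 to 13296 CPM in tumor of MHCIIfl/fl mice. In LN it was 14027 to 14477 CPM in MHCIIdeltaProx-1 mice and 13706 to 14561 CPM in MHCIIfl/fl mice. Fewer Tregs in a sample and less of a transcript per Treg cannot be told apart in bulk RNA, so member levels are given both as CPM and per 10000 pan-T cell counts.

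The member genes lie on 6 chromosomes (GRCm38, GENCODE M21), and counts are over their exons. Il10 is at chr1:131019845-131024974, Maf at chr8:115682942-115707794, Prdm1 at chr10:44437177-44528501, Klrg1 at chr6:122270596-122282882, Fgl2 at chr5:21372642-21378374 and Ebi3 at chr17:55952640-55957022. Maf and Ebi3 share 440 and 270 exon bases with the antisense genes Gm15655 and Gm16712. The strand setting of the counting is not given in the sources used here, so reads from those stretches cannot be told apart. Fgl2 lies inside Ccdc146 on the opposite strand and shares 0 exon bases with it.

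Promoter windows from RefSeq (GRCm38.p6, 250 bases before to 50 after the RefSeq start) matched 3 of the 6 members, and Il10, Maf and Klrg1 were not among them. All 3 windows found are shown, and they were not picked by the levels of these genes. A link between letters in a window and levels was not tested. Capitals mark letters found on either strand for a Maf core (TGCTGA), an AP-1 site (TGANTCA), a Blimp-1 site (AGNGAAAG) or a STAT site (TTCNNNGAA), where N is any base. No match overlaps another. The RefSeq start of Prdm1 lies at position 44458748, which is 69753 bases inside the GENCODE gene, whose 5′ end is at 44528501, so the Prdm1 window belongs to an internal start. The starts of Fgl2 and Ebi3 lie within 31 bases of the GENCODE gene ends.
Fgl2, plus strand of chr5:21372423-21372722: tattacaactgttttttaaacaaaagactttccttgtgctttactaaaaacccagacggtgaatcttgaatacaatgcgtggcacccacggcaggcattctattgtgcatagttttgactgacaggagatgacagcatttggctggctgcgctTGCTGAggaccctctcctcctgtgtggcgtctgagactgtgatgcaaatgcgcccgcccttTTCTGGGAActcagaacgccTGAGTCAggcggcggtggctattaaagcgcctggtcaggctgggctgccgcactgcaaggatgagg
Prdm1, minus strand of chr10:44458699-44458998: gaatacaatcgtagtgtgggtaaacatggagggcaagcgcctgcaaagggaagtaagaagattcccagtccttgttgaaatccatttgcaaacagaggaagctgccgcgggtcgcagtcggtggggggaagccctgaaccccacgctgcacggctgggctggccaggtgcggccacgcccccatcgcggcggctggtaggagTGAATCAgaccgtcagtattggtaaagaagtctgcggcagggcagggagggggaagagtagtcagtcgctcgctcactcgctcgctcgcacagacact
Ebi3, plus strand of chr17:55952373-55952672: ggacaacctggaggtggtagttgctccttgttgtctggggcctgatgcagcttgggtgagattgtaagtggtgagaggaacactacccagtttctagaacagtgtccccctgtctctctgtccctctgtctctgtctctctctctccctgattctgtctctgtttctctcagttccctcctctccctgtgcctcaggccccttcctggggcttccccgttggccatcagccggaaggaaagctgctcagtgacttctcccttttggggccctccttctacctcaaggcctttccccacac
The Fgl2 window holds the Maf core letters at -97 from the RefSeq start, the STAT letters at -36 and the AP-1 letters at -16. The Prdm1 window holds the AP-1 letters at -48. None of the 4 patterns is in the Ebi3 window. Of 32851 promoter windows of the same length, 19.5% hold the Maf core letters, 7.81% the AP-1, 8.63% the Blimp-1 and 8.3% the STAT letters. A match describes letters in the window and does not show that a factor binds there.

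In LN, Il10 fell in mice whose lymphatic endothelium lacked MHC class II, and it was the only member that passed the test. It stood at 3.13 and 2.99 CPM in LN of MHCIIdeltaProx-1 mice, against 9.68, 8.69 and 8.45 CPM in LN of MHCIIfl/fl mice. The groups do not overlap, and the raw counts behind them were 110 and 93 against 319, 322 and 253. The log2 fold change was -1.55 ± 0.16 (SE), a level 2.92-fold lower (edgeR quasi-likelihood, adjusted p = 0.0255). Per 10000 pan-T cell counts Il10 had 2.16 and 2.13 in MHCIIdeltaProx-1 mice against 7.07, 5.97 and 6.08 in MHCIIfl/fl mice, and the call held on that scale (-1.57 ± 0.17, edgeR adjusted p = 0.0121). It was lost when any one of the 5 LN libraries was left out, with log2 fold changes of -1.58 to -1.49 and edgeR adjusted p = 0.0655 to 0.170.

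Il10 was 1 of 5 genes that fell in this comparison among 13920 tested, which is 0.0359% of them, while 1.07% rose. The other 4 are named because they are so few, after their values were seen. They are Adam8, a membrane metalloprotease (5.01 ± 1.03 against 12.5 ± 3.75 CPM), Cxcr6, a chemokine receptor of tissue T cells (32.3 ± 2.31 against 73.8 ± 16.9 CPM), and the receptors Icos (574 ± 115 against 964 ± 55.1 CPM) and Ctla4 (319 ± 35.5 against 495 ± 6.02 CPM), each in MHCIIdeltaProx-1 and then in MHCIIfl/fl LN (SD, n = 2 and 3). Of these 5 genes, Il10 had the lowest fitted log2 fold change, and the others had -1.32 to -0.64. No gene was called in either direction, Il10 included, when any one LN library was left out.

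Maf, Prdm1, Klrg1 and Ebi3 did not pass the test in LN, although all their MHCIIdeltaProx-1 libraries lay below all MHCIIfl/fl libraries. Maf had 66.6 and 88.8 CPM in LN of MHCIIdeltaProx-1 mice against 103, 105 and 120 CPM in LN of MHCIIfl/fl mice (log2 fold change -0.49 ± 0.15, edgeR adjusted p = 0.154). The spread between the 2 MHCIIdeltaProx-1 libraries was wider than the gap to the lowest MHCIIfl/fl library. Prdm1 had 40.0 and 59.4 CPM against 78.5, 77.2 and 71.5 CPM in the same order of groups (-0.61 ± 0.25, edgeR adjusted p = 0.423). Klrg1 had 16.6 and 12.7 CPM in LN of MHCIIdeltaProx-1 mice against 26.4, 34.1 and 33.5 CPM in LN of MHCIIfl/fl mice (-1.09 ± 0.31, edgeR adjusted p = 0.142). Ebi3 had 31.9 and 35.6 CPM in LN of MHCIIdeltaProx-1 mice against 63.2, 61.5 and 43.8 CPM in LN of MHCIIfl/fl mice (-0.74 ± 0.20, edgeR adjusted p = 0.105), with library 3 of MHCIIfl/fl mice closest to the MHCIIdeltaProx-1 libraries. Fgl2 was the exception: its 51.1 and 56.7 CPM in MHCIIdeltaProx-1 mice overlapped the 65.1, 53.1 and 55.0 CPM of MHCIIfl/fl mice (-0.10 ± 0.17, edgeR adjusted p = 1.0).

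For 5 of the 6 members, then, no LN library of MHCIIdeltaProx-1 mice reached the lowest one of MHCIIfl/fl mice, and 11.9% of all tested genes had that pattern. Per pan-T count it was again 5 of 6, against 12.9% of all genes. The median log2 fold change was -0.67 over the members and 0.00 over all genes. At an unadjusted p under 0.05, 5 members would pass in edgeR, against 1298 of 13920 genes, and DESeq2 called 4 members lower after adjustment (Il10, Maf, Klrg1 and Ebi3), as it did 0.409% of all genes, while it called 4.32% higher. Pan-T scaling left all members within 0.03 of their log2 fold changes in LN. The myeloid, B cell, and CD8 T and NK cell marker sums were low in both LN groups: 18 myeloid markers summed to 41.0 to 65.8 CPM in MHCIIdeltaProx-1 and 32.0 to 42.6 CPM in MHCIIfl/fl mice, 11 B and plasma cell markers to 49.6 to 82.1 and 74.6 to 132 CPM, and 10 CD8 T and NK cell markers to 53.2 to 64.3 and 59.6 to 69.1 CPM. Their part in the results was not tested.

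**Figure D1:**
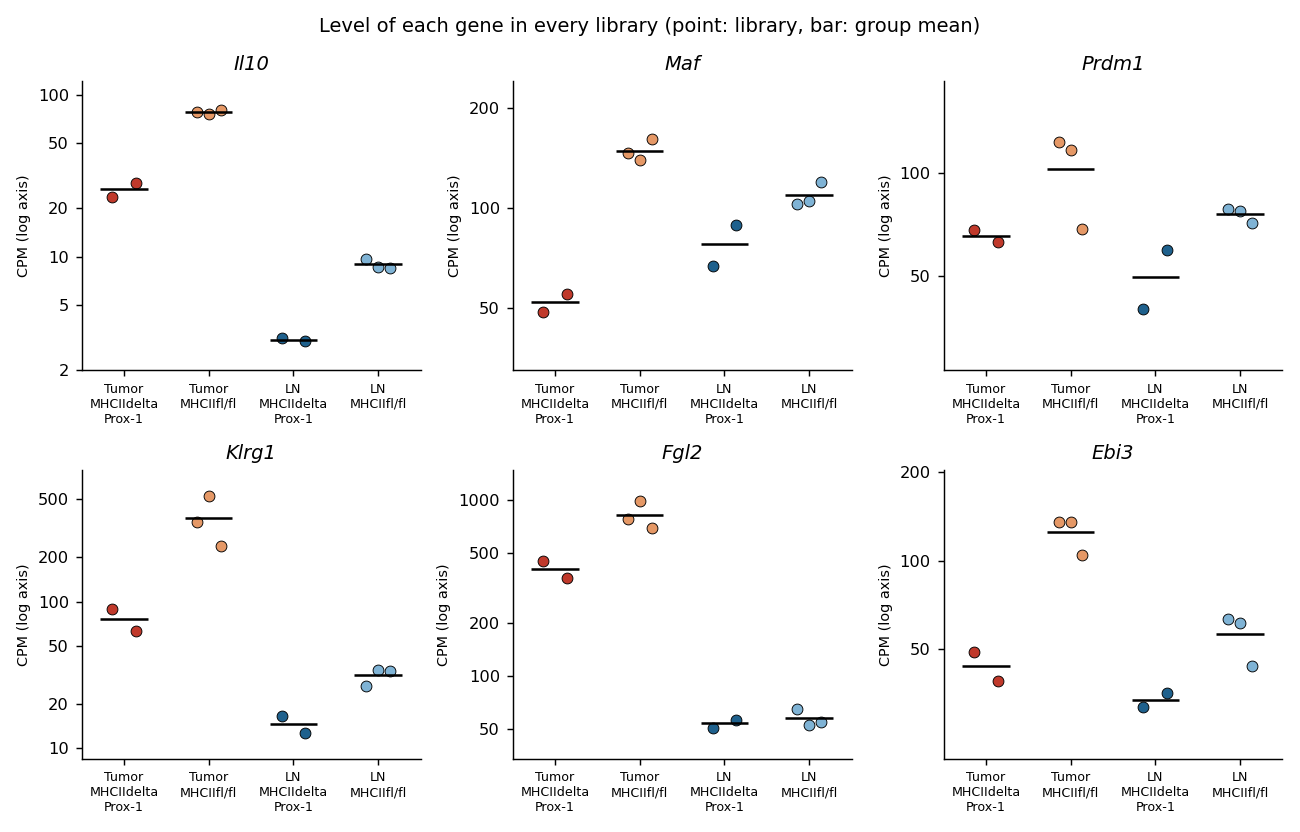
Level of each member in every library in CPM on log axes, with 1 point per library and a bar at the group mean, for tumor of MHCIIdeltaProx-1 mice (n = 2), tumor of MHCIIfl/fl mice (n = 3), LN of MHCIIdeltaProx-1 mice (n = 2) and LN of MHCIIfl/fl mice (n = 3). Il10 sits at 3.13 and 2.99 CPM in the LN libraries of MHCIIdeltaProx-1 mice and at 8.45 CPM or more in all other libraries, and Maf is the member whose lowest group is tumor of MHCIIdeltaProx-1 mice.

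The plot of levels by library shows that the order of the 4 groups differs between members. For Il10 no group overlaps another: tumor of MHCIIfl/fl mice was highest, followed by tumor of MHCIIdeltaProx-1 mice, LN of MHCIIfl/fl mice and LN of MHCIIdeltaProx-1 mice. Klrg1 has the same order, also without overlap. Maf has another order, again without overlap: tumor of MHCIIfl/fl mice, LN of MHCIIfl/fl mice, LN of MHCIIdeltaProx-1 mice and, lowest, tumor of MHCIIdeltaProx-1 mice. For Prdm1 the tumor of MHCIIfl/fl mice (68.4 to 123 CPM) overlaps LN of MHCIIfl/fl mice. For Ebi3 the tumor of MHCIIdeltaProx-1 mice overlaps LN of MHCIIfl/fl mice, and for Fgl2 the LN groups overlap each other.

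Per kilobase of exon, the members are not equally abundant, and their ranking shifts with tissue. In tumor of MHCIIdeltaProx-1 mice the mean RPKM (CPM per kilobase of exon) was 106 ± 17.0 for Fgl2, 53.7 ± 12.5 for Klrg1, 38.1 ± 6.01 for Ebi3, 19.8 ± 2.78 for Il10, 11.7 ± 0.66 for Prdm1 and 6.29 ± 0.56 for Maf (SD, n = 2). In tumor of MHCIIfl/fl mice it was 216 ± 39.8 for Fgl2, 263 ± 104 for Klrg1, 108 ± 15.5 for Ebi3, 59.7 ± 2.03 for Il10, 18.4 ± 5.34 for Prdm1 and 18.1 ± 1.36 for Maf (SD, n = 3). Klrg1 and Fgl2, and likewise Prdm1 and Maf, did not differ beyond their spread in the tumors of MHCIIfl/fl mice. In LN the beta chain Ebi3 had the highest RPKM, 29.2 ± 2.29 in MHCIIdeltaProx-1 and 48.7 ± 9.33 in MHCIIfl/fl mice, and Il10 the lowest, 2.33 ± 0.07 in MHCIIdeltaProx-1 and 6.83 ± 0.50 in MHCIIfl/fl mice (SD, n = 2 and 3).

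In tumor, all 6 members stood lower in MHCIIdeltaProx-1 mice relative to the whole RNA of the library, and 3 of them, Il10, Maf and Klrg1, also lay lower relative to pan-T cell genes. These are the values that led to the choice of the members, so no test is given and nothing is read from them as evidence. Of all tested genes, 24% had every MHCIIdeltaProx-1 library below every MHCIIfl/fl library in CPM, and 1.55% per pan-T count. In the edgeR fit, 13.7% of all genes in this comparison fell and 15% rose. Il10 had 23.4 and 28.6 CPM in tumor of MHCIIdeltaProx-1 mice against 77.9, 75.7 and 81.0 CPM in tumor of MHCIIfl/fl mice, a log2 fold change of -1.59 ± 0.16 (SE). Per 10000 pan-T cell counts it had 43.3 and 43.6 against 58.6, 58.8 and 63.5, which is -0.47 ± 0.16 in the fit scaled to those genes. The groups do not overlap on either scale, and the change per pan-T count is far smaller than that in CPM. The pan-T cell genes did not all differ alike between the tumor groups. Cd3g averaged 547 CPM in MHCIIdeltaProx-1 mice against 1422.5 CPM in MHCIIfl/fl mice, and Prkcq 193 against 264 CPM. Values per pan-T count therefore depend on the genes in that list.

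Maf had 48.6 and 55.1 CPM in tumor of MHCIIdeltaProx-1 mice against 147, 139 and 161 CPM in tumor of MHCIIfl/fl mice (-1.53 ± 0.15). Per 10000 pan-T cell counts it had 89.8 and 84.1 against 110, 108 and 127 in the same groups (-0.40 ± 0.16), also without overlap. Klrg1 had 88.4 and 63.4 CPM in tumor of MHCIIdeltaProx-1 mice against 348, 530 and 238 CPM in tumor of MHCIIfl/fl mice (-2.29 ± 0.32), the largest difference among the members. Per 10000 pan-T cell counts Klrg1 had 163 and 96.8 against 262, 411 and 187 (-1.14 ± 0.32), and the gap between the groups was then small, between 163 and 187.

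The other 3 members did not lie wholly below per pan-T count. Ebi3 had 48.9 and 39.1 CPM in tumor of MHCIIdeltaProx-1 mice against 135, 136 and 104 CPM in tumor of MHCIIfl/fl mice (-1.51 ± 0.20), but 90.4 and 59.7 against 101, 105 and 81.8 per 10000 pan-T cell counts (-0.36 ± 0.22), where the groups overlap. Fgl2 had 449 and 357 CPM in tumor of MHCIIdeltaProx-1 mice against 773, 984 and 692 CPM in tumor of MHCIIfl/fl mice (-1.02 ± 0.17), and its log2 fold change turned to 0.13 ± 0.20 with pan-T scaling, with 829 and 546 against 582, 764 and 542 per 10000 pan-T cell counts. Prdm1 had 67.9 and 62.7 CPM in tumor of MHCIIdeltaProx-1 mice against 123, 116 and 68.4 CPM in tumor of MHCIIfl/fl mice (-0.65 ± 0.25). Per 10000 pan-T cell counts Prdm1 turned to 0.49 ± 0.25, with 126 and 95.7 in MHCIIdeltaProx-1 mice above the 92.6, 90.1 and 53.6 of MHCIIfl/fl mice.

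**Figure D2:**
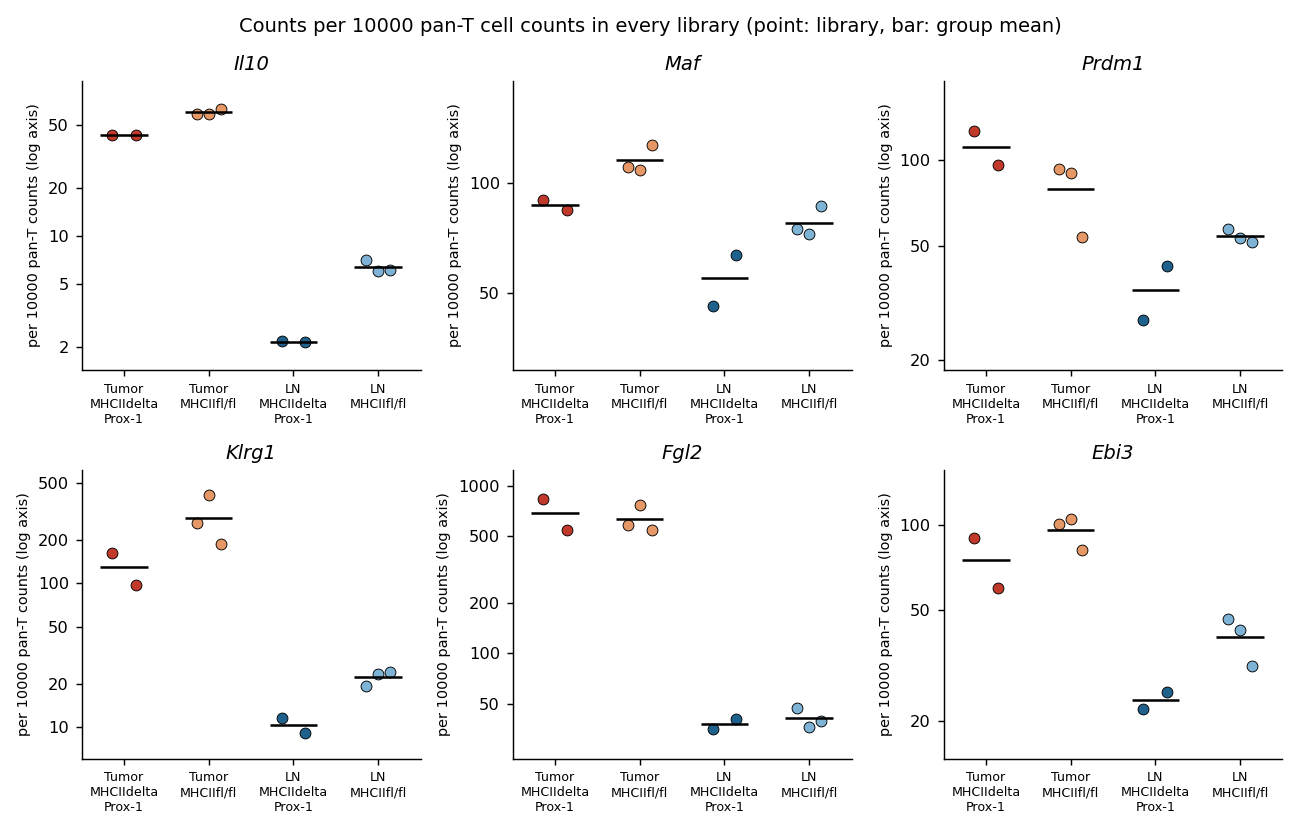
Counts of each member per 10000 pan-T cell counts in every library on log axes, with 1 point per library and a bar at the group mean, groups as in the plot of CPM. In tumor the MHCIIdeltaProx-1 libraries lie below those of MHCIIfl/fl mice for Il10, Maf and Klrg1, overlap them for Fgl2 and Ebi3, and lie above them for Prdm1.

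With pan-T scaling the median of all tested genes in the tumor comparison was 1.23, against 0.10 with TMM, and 1.55% of all genes had their MHCIIdeltaProx-1 libraries all below those of MHCIIfl/fl mice, compared with 24% in CPM. Prdm1 stood above in all libraries per pan-T count, as did 76.2% of all genes. The median over the members was -1.52 in CPM and -0.38 with pan-T scaling. Foxp3 had 645 and 522 per 10000 pan-T cell counts in tumor of MHCIIdeltaProx-1 mice and 486, 634 and 588 in tumor of MHCIIfl/fl mice, with the groups overlapping. Beside the members, the myeloid marker sum was 37.2 to 40.3 CPM in tumor of MHCIIdeltaProx-1 mice and 38.1 to 53.4 CPM in tumor of MHCIIfl/fl mice, with Csf3r at 0 counts in both groups. CD8 T and NK cell markers summed to 46.5 to 67.8 and 71.5 to 100.1 CPM, and B and plasma cell markers to 47.8 to 61.7 and 28.8 to 53.9 CPM, in the same order of groups. The sum of 11 stromal and endothelial markers was 358 to 905 CPM in tumor of MHCIIdeltaProx-1 mice and 538 to 4229 CPM in tumor of MHCIIfl/fl mice. Its genes did not move together (mean CPM in the same order of groups). Col1a1 (120 and 808), Col1a2 (100 and 598) and Col3a1 (229 and 939) were lower in MHCIIdeltaProx-1 mice. So were Pdgfrb (4.19 and 10.6) and Pecam1 (66.7 and 91.0). Lyve1 (43.0 and 2.83), Flt4 (35.7 and 2.58), Cdh5 (7.28 and 0.48), Kdr (7.89 and 2.11) and Pdpn (12.1 and 5.69) were higher. Prox1 had 4.51 and 4.23. The part of these cells in the members' levels was not tested.

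Set side by side, the deletion effects in tumor and LN were nearly the same size in CPM for Il10 and Prdm1 and larger in tumor for the other 4. The tumor minus LN difference in log2 fold change was -0.04 ± 0.22 for Il10 and -0.04 ± 0.34 for Prdm1, -1.03 ± 0.20 for Maf, -1.20 ± 0.43 for Klrg1, -0.92 ± 0.23 for Fgl2 and -0.77 ± 0.27 for Ebi3. With pan-T scaling these differences turned positive for 5 members, to 1.10 ± 0.23 for Il10, 1.11 ± 0.36 for Prdm1, 0.10 ± 0.23 for Maf, 0.25 ± 0.29 for Fgl2 and 0.39 ± 0.31 for Ebi3, and stood at -0.03 ± 0.45 for Klrg1. The median of this difference over all tested genes moved as well, from -0.01 with TMM to 1.14 with pan-T scaling. On that scale the deletion effect was -0.47 in tumor and -1.57 in LN for Il10, -0.40 and -0.51 for Maf, and -1.14 and -1.11 for Klrg1. These differences contain the values that chose the members and were not tested.

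**Figure D3:**
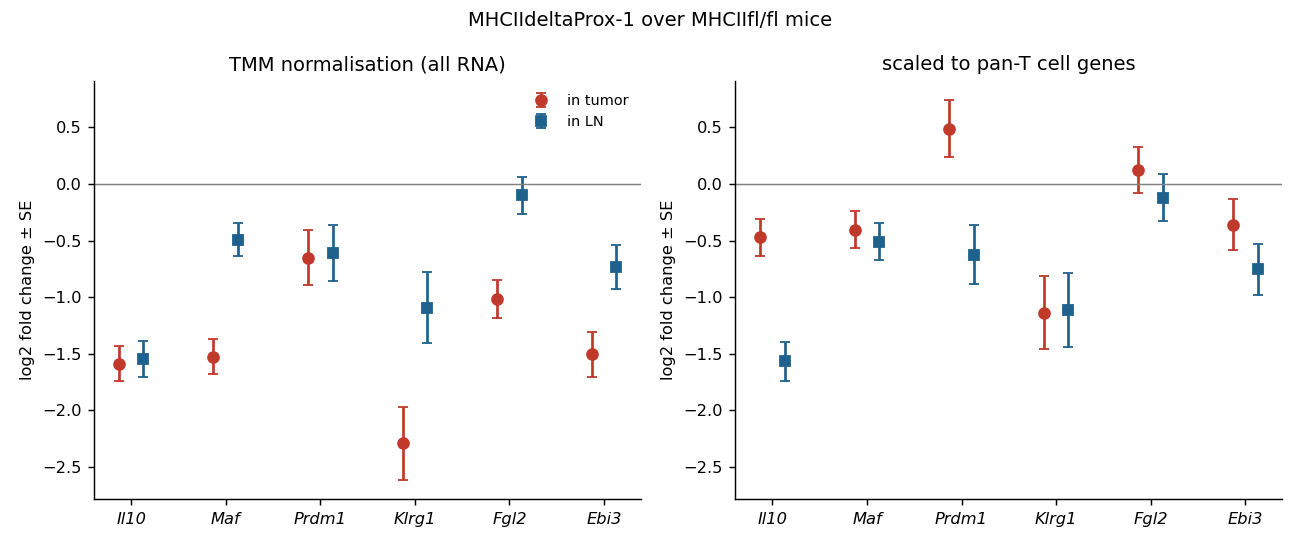
Log2 fold change (± SE) of each member in MHCIIdeltaProx-1 over MHCIIfl/fl mice, in tumor (circles) and in LN (squares), with TMM normalisation on the left and scaled to pan-T cell genes on the right. Il10 has -1.59 in tumor and -1.55 in LN on the left, and -0.47 in tumor and -1.57 in LN on the right.

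The tissue effect compares tumor Tregs with LN Tregs within a genotype, without pairing of libraries. In MHCIIfl/fl mice 5 of the 6 members rose in tumor, while 22.8% of all tested genes rose and 16.1% fell (edgeR). Fgl2 rose most among them, with 773, 984 and 692 CPM in tumor against 65.1, 53.1 and 55.0 CPM in LN, a log2 fold change of 3.82 ± 0.16 or 14.1-fold (edgeR adjusted p = 2.86e-07). Klrg1 rose by 3.57 ± 0.29 on the log2 scale (348, 530 and 238 CPM in tumor against 26.4, 34.1 and 33.5 CPM in LN, edgeR adjusted p = 1.59e-05). Il10 rose by 3.13 ± 0.14 on the log2 scale, or 8.74-fold, with 77.9, 75.7 and 81.0 CPM in tumor against 9.68, 8.69 and 8.45 CPM in LN (edgeR adjusted p = 4.32e-07).

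The transcription factors had smaller tissue effects than these 3 genes. Maf rose by 0.45 ± 0.13 on the log2 scale, with 147, 139 and 161 CPM in tumor against 103, 105 and 120 CPM in LN (edgeR adjusted p = 0.0195). That call was lost without LN library 1, LN library 2 or tumor library 3 of MHCIIfl/fl mice (edgeR adjusted p = 0.0733, 0.0711 and 0.0631). Prdm1 did not pass the test, with 123, 116 and 68.4 CPM in tumor against 78.5, 77.2 and 71.5 CPM in LN (0.44 ± 0.22, edgeR adjusted p = 0.132), and tumor library 3 lay below all LN libraries. Without that library it passed, at 0.66 (edgeR adjusted p = 0.0138). Ebi3 rose by 1.15 ± 0.17 on the log2 scale, with 135, 136 and 104 CPM in tumor against 63.2, 61.5 and 43.8 CPM in LN (edgeR adjusted p = 0.000603). The tumor libraries of 5 members lay wholly above the LN libraries in CPM, against 29% of all genes, and per pan-T count it was again 5, against 33.3%. The median over the members was 2.14, and that over all genes was 0.08.

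In MHCIIdeltaProx-1 mice Il10, Klrg1 and Fgl2 again rose in tumor and Maf fell, where 24.3% of all tested genes rose and 20.1% fell (edgeR). Il10 had 23.4 and 28.6 CPM in tumor against 3.13 and 2.99 CPM in LN, a log2 fold change of 3.09 ± 0.18 or 8.49-fold (edgeR adjusted p = 2.05e-06). Fgl2 had 449 and 357 CPM in tumor against 51.1 and 56.7 CPM in LN (2.90 ± 0.19, edgeR adjusted p = 4.09e-06), and Klrg1 had 88.4 and 63.4 against 16.6 and 12.7 CPM (2.37 ± 0.34, edgeR adjusted p = 0.000455).

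Maf fell, with 48.6 and 55.1 CPM in tumor against 66.6 and 88.8 CPM in LN of MHCIIdeltaProx-1 mice (-0.58 ± 0.16, edgeR adjusted p = 0.0132), but it turned to 0.67 ± 0.18 with pan-T scaling (edgeR adjusted p = 0.00709). Its call in CPM was lost without LN library 2 (edgeR adjusted p = 0.130), without tumor library 1 (0.0723) and with only the groups compared (0.0781). Prdm1 and Ebi3 did not pass in CPM (0.39 ± 0.26 and 0.38 ± 0.21, edgeR adjusted p = 0.248 and 0.162). With pan-T scaling both passed, Prdm1 at 1.66 ± 0.29 (edgeR adjusted p = 0.000505) and Ebi3 at 1.66 ± 0.25 (edgeR adjusted p = 0.000197), and all 6 members were then higher in tumor. In CPM the tumor libraries lay wholly above LN for 5 members and below for Maf, against 39.2% and 36.4% of all genes, and per pan-T count above for all 6, against 78.6%. The median over the members was 1.38 in CPM and 2.66 with pan-T scaling. The median of all genes moved on that scale to 1.33, against 0.07 with TMM. The tissue comparisons of the genotypes share no library, but each shares libraries with a deletion effect.

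**Figure D4:**
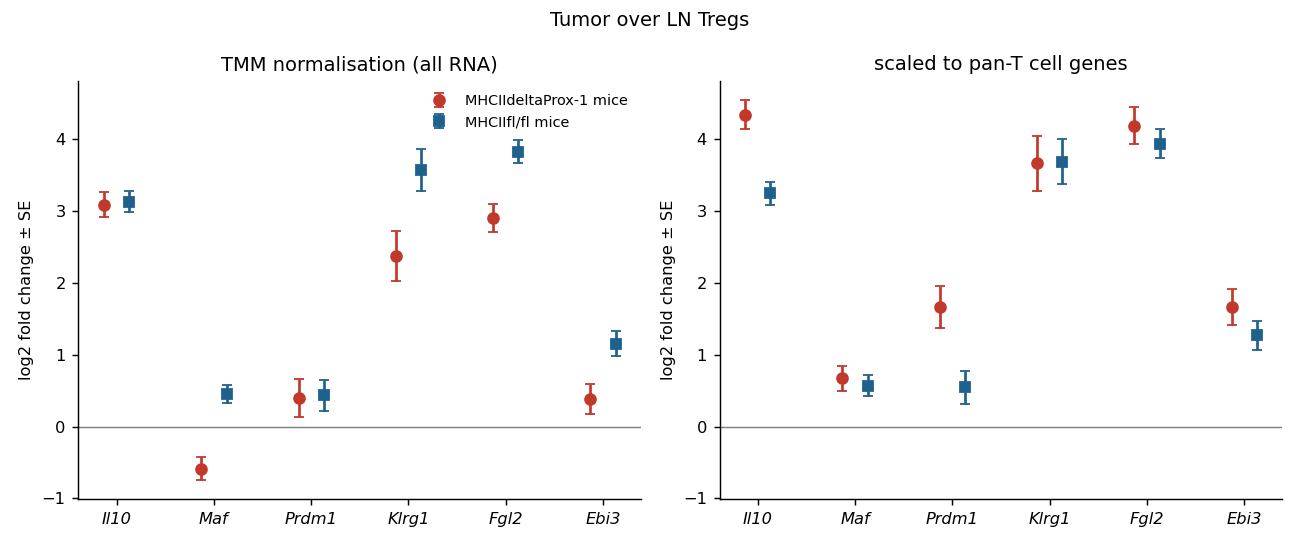
Log2 fold change (± SE) of each member in tumor over LN, for MHCIIdeltaProx-1 mice (circles) and MHCIIfl/fl mice (squares), with TMM normalisation on the left and scaled to pan-T cell genes on the right. Il10, Klrg1 and Fgl2 lie at 2.37 or more in both genotypes, and Maf at -0.58 in MHCIIdeltaProx-1 mice on the left is at 0.67 on the right.

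Genes around these members were described from 7 lists, which were also drawn up with earlier results known. In LN, 2 of 22 other effector Treg genes fell in MHCIIdeltaProx-1 mice, Ctla4 and Icos, and none rose (edgeR, with a list median of -0.31 against 0.00 for all genes, 9 members at an unadjusted p under 0.05 and 6 called by DESeq2). Over all genes, edgeR called 0.0359% lower and 1.07% higher in LN, and DESeq2 0.409% and 4.32%. An unadjusted p under 0.05 in edgeR was found for 1298 of 13920 genes. No edgeR call in LN held when any one LN library of MHCIIfl/fl mice was left out. Icos, which costimulates Il10 expression, was also the 1 of 15 regulators of Il10 that fell. Among 14 genes of resting Tregs, Klf2, a factor of T cell recirculation, rose (log2 fold change 3.94 ± 0.77, edgeR adjusted p = 0.0497). The lists of Il10 receptor signaling, of Il10 and Il12 family cytokines, of Maf and Prdm paralogs and of Klrg1 and Fgl2 partners had 0 calls in LN by edgeR, with 2, 0, 3 and 1 genes at an unadjusted p under 0.05 and 0, 0, 2 and 1 called by DESeq2.

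In tumor, 21 of the 22 effector genes fell in MHCIIdeltaProx-1 mice in CPM (median -1.09 against 0.10 for all genes), but with pan-T scaling 2 were higher and 0 lower (median 0.04, edgeR). Over all genes, 13.7% fell and 15% rose in CPM, and 0.33% were lower and 67.4% higher with pan-T scaling. By p, the first were Batf, an AP-1 family factor (-1.34 ± 0.12, edgeR adjusted p = 0.000177), and Ctla4 (-1.18 ± 0.11, edgeR adjusted p = 0.000195). With pan-T scaling Batf stood at -0.21 and Ctla4 at -0.06, with adjusted p = 0.197 and 0.631 in edgeR. Batf is also on the list of regulators of Il10, of which 11 of 15 fell and 0 rose in CPM, and 0 were lower and 5 higher with pan-T scaling (edgeR, median 0.16). Among those that fell was Il27ra, the interleukin 27 receptor chain (-1.31 ± 0.12, edgeR adjusted p = 0.000199, or -0.19 with pan-T scaling). The receptor chain Il10ra fell to 79.8 ± 4.96 CPM in MHCIIdeltaProx-1 mice, against 142 ± 20.8 CPM in MHCIIfl/fl mice (SD, n = 2 and 3), a log2 fold change of -0.83 ± 0.15 (edgeR adjusted p = 0.00364) that turned to 0.31 with pan-T scaling. Of the 14 genes of resting Tregs, 3 fell and 1 rose in CPM (edgeR, median -0.22). With pan-T scaling 0 of them were lower and 12 higher (median 0.88). Among Maf and Prdm paralogs 2 of 13 tested genes fell and 2 rose in CPM, near the shares over all genes, and 0 were lower and 9 higher with pan-T scaling. The paralogs called in CPM included Prdm2 at -0.71 ± 0.17 and Prdm16 at 2.16 ± 0.53 (edgeR adjusted p = 0.0131 and 0.0144), and Prdm2 turned to 0.41 with pan-T scaling. Of 8 tested Klrg1 and Fgl2 partners and relatives, 1 rose and 0 fell in CPM (edgeR), near the shares over all genes. It was Cdh2, a cadherin ligand of Klrg1, with 24.6 ± 1.44 CPM in tumor of MHCIIdeltaProx-1 mice, where the melanoma markers were also higher, against 4.83 ± 0.97 CPM in tumor of MHCIIfl/fl mice (SD, n = 2 and 3, edgeR adjusted p = 0.0103). The cadherin Cdh1 had 3.91 ± 3.59 against 8.32 ± 4.15 CPM in the same order of groups and was not called.

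Between tumor and LN of MHCIIfl/fl mice, 15 of the 22 effector genes rose and 2 fell, and 2 of the 14 resting genes rose and 8 fell (edgeR), while 22.8% of all genes rose and 16.1% fell. Ctla4 and Id2, an inhibitor of E protein factors, had 2.63 ± 0.10 and 2.90 ± 0.14 (edgeR adjusted p = 1.83e-07 and 4.67e-07). The resting factors Lef1 and Id3 had -1.65 ± 0.09 and -3.81 ± 0.23 (edgeR adjusted p = 9.95e-07 and 2.05e-06). Of the regulators of Il10, 7 rose and 3 fell: Bhlhe40, which represses Il10 in T cells, rose to 2799 ± 196 CPM in tumor, against 137 ± 2.09 CPM in LN (SD, n = 3 each, edgeR adjusted p = 2.60e-08), and Il6st fell with -1.82 ± 0.11 (edgeR adjusted p = 2.10e-06). Of 9 genes of Il10 receptor signaling, 4 rose and 2 fell (edgeR). The factor Stat3 rose with 0.86 ± 0.15 (edgeR adjusted p = 0.00166), and the kinase Jak1 fell with -0.36 ± 0.11 (edgeR adjusted p = 0.0252). The receptor chain Il12rb2 rose with 4.87 ± 0.41 (edgeR adjusted p = 1.64e-05), while Il12a and Il27, the cytokine chains that pair with Ebi3, did not pass the filter on low counts.

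The genes nearest to each member in pattern over all 10 libraries were taken by the mean absolute difference of log2 CPM, each gene centred on its own mean, among 8722 genes. Distances were not computed with pan-T scaling. In CPM the sum of pan-T cell genes was itself lower in tumor of MHCIIdeltaProx-1 mice than in tumor of MHCIIfl/fl mice. The part of that difference in the distances was not tested. Nearest to Il10 were the chemokine receptors Cxcr6 (0.24 log2 units) and Ccr2 (0.25) and the co-inhibitory receptor Havcr2 (0.32). Cxcr6 averaged 322 ± 63.9 CPM in tumor of MHCIIdeltaProx-1 mice and 867 ± 169 CPM in tumor of MHCIIfl/fl mice (SD, n = 2 and 3). For Klrg1 the nearest gene of all was Il10 (0.34). Maf was nearest to S100a10 (0.12), Hcst (0.13) and Nmb (0.13), Prdm1 to Rfk (0.14), Nek8 (0.15) and Rom1 (0.16), Fgl2 to Ctla2b (0.12), Dgat1 (0.19) and Dusp4 (0.19), and Ebi3 to the TNF receptor family member Tnfrsf18 (0.18), Ly6a (0.20) and Atp2b4 (0.21). Among the members, the pair Il10 and Klrg1 (0.34), the pair Prdm1 and Ebi3 (0.35) and the pair Maf and Prdm1 (0.35) were the closest, and Maf and Fgl2 were the farthest apart (1.70).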

How the data were processed

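RNA was sequenced from Tregs sorted from tumor and LN of mice of 2 genotypes, in 10 libraries. Per the labels' protocols, cDNA came from SMARTer Ultra Low amplification, libraries from Nextera XT, and single reads of 50 bases were read. Per the submitters' processing notes, the tools were featureCounts 1.4.6, STAR 2.4 and CASAVA 1.8.2, and the build GRCm38. The annotation release and strand setting are not given in the sources used here. The values deposited by the authors are raw whole-number counts for each Ensembl gene, not normalized, with 28539329 to 35736175 per library.

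Symbols and exon lengths came from GENCODE M21. Genes were filtered with filterByExpr (minimum count 10), which left 13920, normalized by TMM and tested with the quasi-likelihood test of edgeR 4.0.16 in R 4.3.3, in 1 fit of 4 group means to all 10 libraries, since a group of 2 says little about its own spread. Genes under 0.05 after Benjamini-Hochberg adjustment over all genes were called. SE is the log2 fold change divided by the square root of F, in size. The pipeline was tested on simulated data. The members, lists, named genes and alternatives were chosen with earlier results of these data known. Named genes are the members, genes among the first 4 called by p of each list and comparison, and the 3 nearest patterns per member among genes of at least 10 CPM. Patterns were computed from log2 CPM with a prior count of 2. Pan-T scaling used the summed counts of the pan-T cell list as library size. Alternatives were RLE factors, pan-T scaling, DESeq2 1.42.0, no filter, only the groups compared, a replicate block and leaving out each library.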

Additional observations from a re-analysis of the deposited data

Results flagged for a closer look

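Maf differed between the genotypes in its tissue effect in CPM. All tumor libraries lay below all LN libraries in MHCIIdeltaProx-1 mice (log2 fold change -0.58) and above them in MHCIIfl/fl mice (0.45). The difference was not tested, and with pan-T scaling Maf stood higher in tumor in both genotypes (0.67 and 0.56).

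Prdm1 differed between the tissues in its deletion effect per pan-T cell count. All MHCIIdeltaProx-1 libraries lay above all MHCIIfl/fl libraries in tumor (0.49) and below them in LN (-0.62). The difference was not tested, and in CPM Prdm1 was lower in both tissues (-0.65 and -0.61).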

How the results depend on the processing

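The deletion effect in LN was the least stable comparison. The TMM fit called 154 genes and 1 member in LN, RLE size factors 23 genes, pan-T scaling 381, DESeq2 659 genes and 4 members, and only the groups compared 806 genes and 3 members. With replicate number as a block, edgeR called 0 genes and 0 members (Il10 at -1.55, adjusted p = 0.102), against 154 genes and 1 member without the block. Before adjustment, 1298 genes had p under 0.05 in the edgeR fit without the block. Deviations of same-numbered libraries from their group means correlated at -0.15 to 0.05. Within a genotype, tumor and LN libraries of the same number had 0.020 to 0.046, and those of different numbers -0.035 to -0.0034. Whether tumor and LN libraries came from the same mice is not given, and correlations this small cannot decide it. Without single libraries the count ran from 0 to 611 genes and from 0 to 1 members. With 1 library left in a group, that library is assumed to vary like the others.

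Pan-T scaling called 9490 genes for the tissue effect in MHCIIdeltaProx-1 mice (9200 higher and 290 lower, against 3383 and 2792 of 6175 with TMM), 9422 for the deletion effect in tumor (9376 and 46, against 2092 and 1907 of 3999) and 6491 for tumor minus LN (6472 and 19, against 576 and 915 of 1491). DESeq2 called 2487 for tumor minus LN, and only the groups compared 2519 for the deletion effect in tumor. Without single libraries these counts ran from 4293 to 6326, from 2745 to 3695 and from 527 to 2281, and from 4157 to 5671 for the tissue effect in MHCIIfl/fl mice (5409 with all). Members called for the tissue effects ran from 3 to 4 in MHCIIdeltaProx-1 and from 4 to 5 in MHCIIfl/fl mice.

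Signs turned with pan-T scaling for Maf in the tissue effect in MHCIIdeltaProx-1 mice (0.67), for Prdm1 and Fgl2 in the deletion effect in tumor (0.49 and 0.13), and for Il10, Maf, Prdm1, Fgl2 and Ebi3 in tumor minus LN (1.10, 0.10, 1.11, 0.25 and 0.39). The tumor minus LN values of Il10 and Prdm1, both -0.04 with TMM, also turned with RLE (0.025 each) and DESeq2 (0.027 and 0.025), and that of Prdm1 with the replicate block (0.0099). Without single libraries they ran from -0.19 to 0.093 for Il10 and from -0.30 to 0.27 for Prdm1. The cause was not tested. The replicate block changed no other call of a member. Only the groups compared gives no value for tumor minus LN, which uses all groups.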
